A study of Mus musculus with 12 samples.

Results

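The data described here are the array signals of Hif1a and 9 genes of the response to low oxygen, Epas1, Arnt, Vegfa, Slc2a1, Pgk1, Ldha, Egln1, Bnip3 and Vhl, in the brains of amitriptyline-treated Alzheimer's disease model mice. All probes that carry one of these gene symbols were taken, which gave 16 of the 25697 probes on the array, or 10 of 18097 genes by symbol. Vhl is listed under its older symbol Vhlh and was matched through its Entrez identifier. The genes were chosen by measured values, namely the higher Hif1a signal after treatment in both tissues, to see whether its partners and targets shared it. The Hif1a values after treatment are therefore given as a description, without a test.

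The mice were male 3×TgAD mice, which carry mutant human APP and tau under a neuronal promoter and a mutant presenilin 1 knock-in, in AMI and vehicle groups alike. From the age of 14 months they drank water with amitriptyline hydrochloride (AMI), a tricyclic antidepressant, at 100 µg per g of body weight for 4 months, or water alone (vehicle). Mice of both groups were also given bromodeoxyuridine, a label of dividing cells, during the treatment. RNA of the hippocampus and of the cortex was taken at 18 months and hybridized to Illumina Mouse Ref-8 arrays, with 3 arrays per treatment and tissue and 12 in all. No wild-type mice were on these arrays. Which arrays came from the same mouse is not stated, so p-values measure the spread between these arrays.

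HIF-1α, the product of Hif1a, and its relative HIF-2α, from Epas1, pair with ARNT and bind a short DNA element in front of hypoxia-responsive genes. When oxygen is sufficient, the prolyl hydroxylase PHD2, from Egln1, marks HIF-α for capture by VHL and destruction, so HIF activity is set mostly by the stability of the protein, which an RNA array does not measure. Among the targets, Vegfa drives vessel growth, Slc2a1 encodes the glucose transporter GLUT1 of the blood-brain barrier and of astrocytes, Pgk1 and Ldha encode glycolytic enzymes, Bnip3 a mitochondrial protein of autophagy, and Egln1 is itself a target that limits the response.

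Values are given as log2 signal after z normalization of each array, brought to one common scale for the 12 arrays, and a difference of 1 on this scale is a doubling. A probe was tested in a tissue when at least 3 of the 6 arrays had a detection p, the scanner software's measure of signal over negative controls, of 0.05 or below. Of the 16 member probes, 12 passed in both tissues, covering 9 of the 10 genes. The 4 others, ILMN_3129160 of Epas1, ILMN_2607563 of Arnt, ILMN_3045723 of Vegfa and the sole Bnip3 probe, were not detected on any of the 12 arrays, so no level of Bnip3 can be given. Between 49.0% and 51.7% of all probes were detected per array. The tissue labels were checked against markers. All 4 tested hippocampal markers were higher in the hippocampus in both treatment groups (limma, adjusted p under the threshold of 0.05), and 4 of 6 cortical markers were higher in the cortex of vehicle mice and 5 of 6 in AMI mice. The sixth, Fezf2, went against its label, with differences of 0.68 and 0.94, hippocampus minus cortex. Striatal markers were also higher in the cortex, for 4 of 5 genes in vehicle mice. Their mean log2 signal was 9.02 to 9.12 on the cortical vehicle arrays and 8.63 to 8.78 on the cortical AMI arrays, and the part of this difference in the cortical results below was not tested. In the hippocampus all 6 oligodendrocyte markers lay below 0 after AMI (median log2 fold change -0.47, none past the adjusted test), and their part in the hippocampal results was likewise not tested. All 5 tested choroid plexus markers also lay below 0 there (median -0.74, none past the adjusted test). Over 7 such markers the mean log2 signal was 9.80 on hippocampal vehicle array 3, against 7.26 and 7.51 on the other vehicle arrays and 7.16 to 7.48 on the AMI arrays. That array also had the lowest Hif1a and Vhl signals of the hippocampus, and the differences without it are given below.

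The promoters of these genes show which of them carry the HIF-binding core in the stretch just before an annotated start site. RefSeq windows of the 250 bases before the start site were available for 9 of the 10 genes, and not for Epas1. The cores searched were ACGTG and GCGTG on both strands, and ACGTG overlaps the E-box CACGTG. These genes had 11 windows, of which 9 held a core, against 38.6% of 32851 mouse promoter windows of the same length. The Vhl window and the first of the Vegfa windows held none. The other Vegfa window (chr17:46025164-46025413, minus strand) held both cores and is counted here. It lies downstream of the first (chr17:46032378-46032627), so its matches do not lie before the first start site. The ACGTG core was found in 7 of the 11 windows and in 16.6% of all windows. Several of these genes were listed as HIF targets, so these shares are no test of the list. The 11 windows had 54.4% to 86% G and C, and the windows compared were not matched for this. A match is a description of letters and does not show binding. The windows of Hif1a itself, of Slc2a1 and Pgk1, the targets with the largest differences after AMI in the hippocampus and the cortex, and of Ldha, which had the most ACGTG matches (5), are printed 5′ to 3′ in the direction of the gene (GRCm38.p6, Hif1a chr12:73907617-73907866, Slc2a1 chr4:119108495-119108744, Pgk1 chrX:106186850-106187099, Ldha chr7:46845554-46845803, all on the plus strand), with the cores on either strand in capitals.
Hif1a: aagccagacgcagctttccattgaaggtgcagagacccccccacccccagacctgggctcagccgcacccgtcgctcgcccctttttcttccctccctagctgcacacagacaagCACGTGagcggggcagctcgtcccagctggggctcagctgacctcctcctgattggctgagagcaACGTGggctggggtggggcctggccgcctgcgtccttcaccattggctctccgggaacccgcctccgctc
Slc2a1: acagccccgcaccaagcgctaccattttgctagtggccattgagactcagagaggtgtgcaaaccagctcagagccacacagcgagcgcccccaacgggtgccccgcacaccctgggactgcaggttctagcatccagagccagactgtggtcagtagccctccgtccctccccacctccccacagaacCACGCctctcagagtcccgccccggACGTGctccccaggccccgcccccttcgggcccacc
Pgk1: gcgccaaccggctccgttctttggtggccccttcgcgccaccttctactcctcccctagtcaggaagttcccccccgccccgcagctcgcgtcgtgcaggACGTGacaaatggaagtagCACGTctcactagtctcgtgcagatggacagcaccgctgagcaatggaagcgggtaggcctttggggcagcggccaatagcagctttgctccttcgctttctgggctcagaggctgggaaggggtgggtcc
Ldha: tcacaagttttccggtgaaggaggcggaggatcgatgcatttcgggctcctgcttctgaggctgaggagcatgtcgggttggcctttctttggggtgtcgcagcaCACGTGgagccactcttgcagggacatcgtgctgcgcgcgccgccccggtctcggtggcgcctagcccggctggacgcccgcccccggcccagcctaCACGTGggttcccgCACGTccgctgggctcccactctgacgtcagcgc
In the Hif1a window a pair of the 3 matches are the 2 strands of 1 E-box, and the other lies at position -70 from the start site. In the Slc2a1 window the ACGTG match lies at position -36. In the Ldha window all ACGTG matches except that at position -34 are paired strands of E-boxes, so the 5 matches are fewer separate sites.

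Hif1a, the oxygen-regulated subunit, was higher after AMI in both tissues. In the hippocampus its log2 signal was 7.13, 7.71 and 7.21 on AMI arrays 1 to 3, and 7.10, 7.01 and 6.70 on the vehicle arrays. In the cortex it was 7.40, 7.63 and 7.27 with AMI and 7.21, 6.79 and 7.10 with vehicle. The groups did not overlap in either tissue, but the gap was narrow, since the lowest hippocampal AMI array stood just above the highest vehicle array. The mean difference was 0.41 in the hippocampus (1.33-fold) and 0.40 in the cortex (1.32-fold), with 3 arrays per group. AMI replicate 2 had the highest Hif1a signal in each tissue. Without it the difference was 0.23 in the hippocampus and 0.30 in the cortex. Without hippocampal vehicle array 3, rich in choroid plexus markers, the hippocampal difference was 0.29. In whole tissue, more cells of a type that expresses a gene and more RNA per cell cannot be told apart, here and for every gene below.

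**Figure D1:**
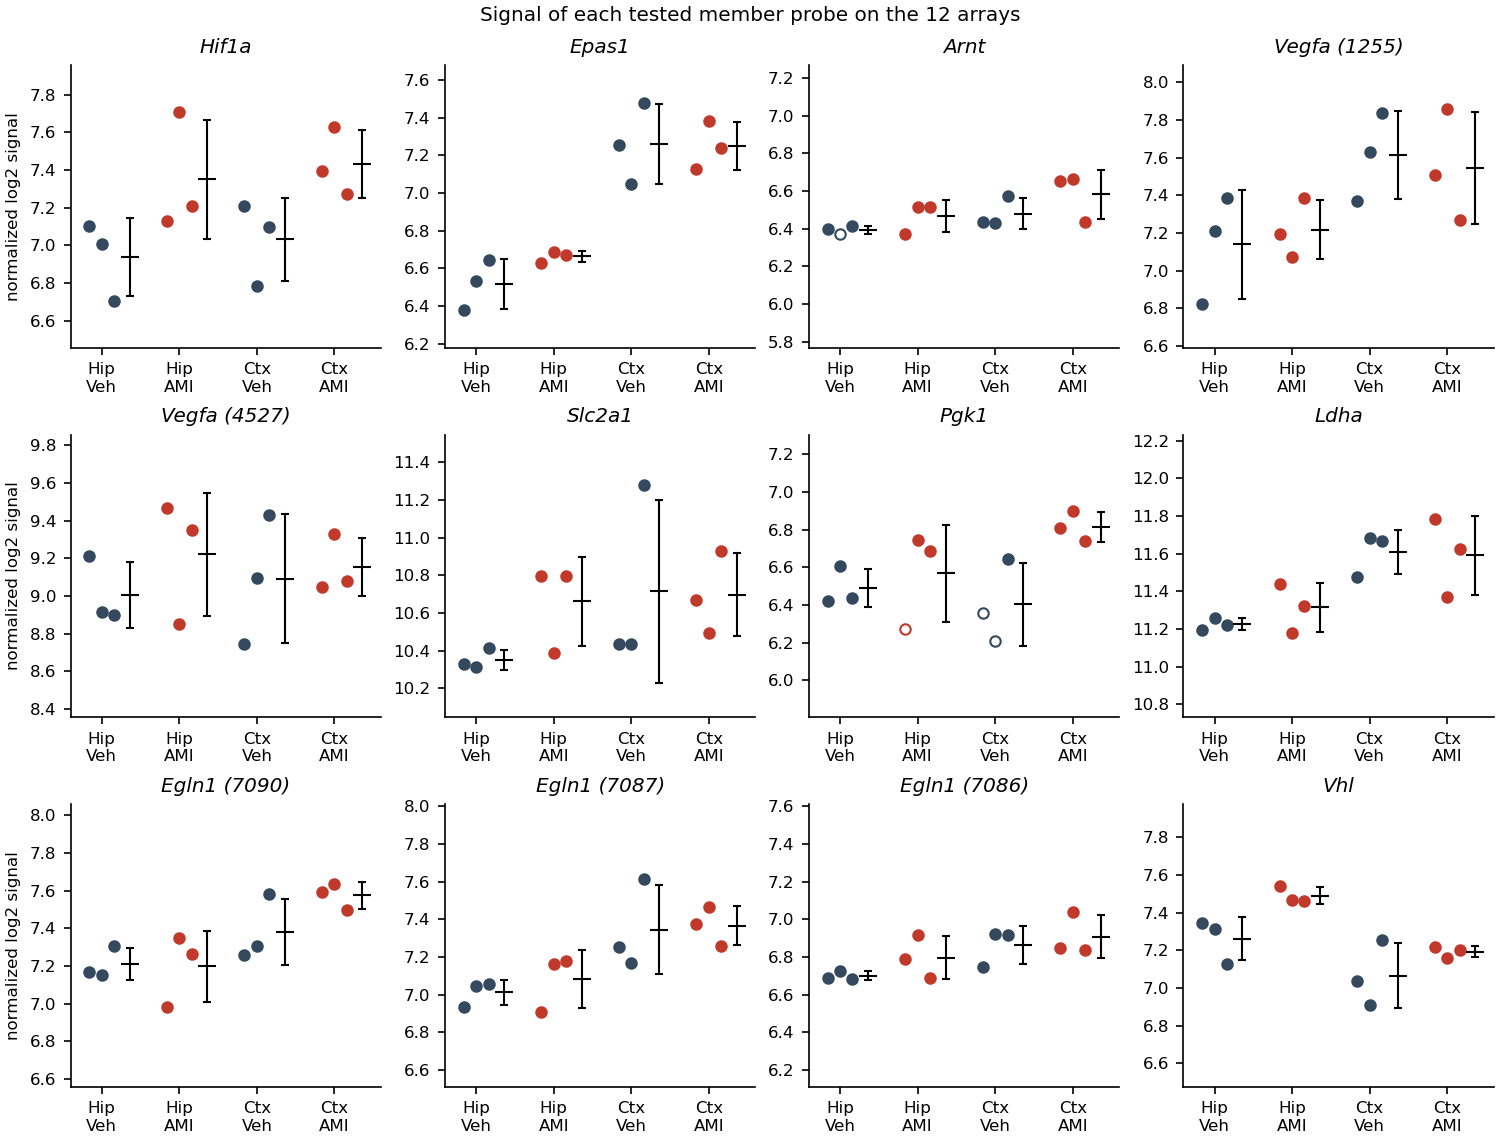
Normalized log2 signal of the 12 tested member probes on the 12 arrays, by tissue (Hip, hippocampus; Ctx, cortex) and treatment (Veh, vehicle, dark; AMI, red). Each point is an array, open where the probe was not detected, the bar beside each group is the mean ± SD (n = 3), every panel spans the same range of log2 units, and numbers after a gene name are the last digits of its probe identifier; Hif1a is higher on the AMI arrays in both tissues and Epas1 is higher in the cortex.

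Of the other HIF subunits, Epas1 was 6.63, 6.69 and 6.67 on the hippocampal AMI arrays and 6.38, 6.53 and 6.64 on the vehicle arrays. The lowest AMI array fell just inside the vehicle range. The mean difference was 0.14 in the hippocampus (SE 0.10) and -0.01 in the cortex (SE 0.13), neither of them past the test. Arnt, the shared partner subunit, differed by 0.08 (hippocampus) and 0.10 (cortex), and its groups overlapped in each. The signals of Arnt, at 6.37 to 6.66, lay close to the undetected range.

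Vhl, the substrate receptor that delivers hydroxylated HIF-α for destruction, had log2 signals of 7.54, 7.47 and 7.46 with AMI and 7.34, 7.31 and 7.13 with vehicle in the hippocampus. These groups did not overlap, and the difference was 0.23 (SE 0.10), or 0.16 without vehicle array 3. Its unadjusted limma p was under 0.05, but it did not pass after Benjamini-Hochberg adjustment over the 13163 probes tested (adjusted p = 0.9996). In the cortex Vhl was 7.22, 7.16 and 7.20 with AMI against 7.04, 6.91 and 7.25 with vehicle, a difference of 0.13 (SE 0.11) with overlap. Egln1 was measured by 3 probes that start within a few bases of each other on the transcript and are thus not independent of one another. Their differences after AMI ran from -0.01 to 0.10 in the hippocampus and from 0.02 to 0.19 in the cortex. All 6 of these comparisons had overlapping groups, and the probes did not order the same way in the tissues.

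Slc2a1 was the target with the largest difference in the hippocampus. Its log2 signal was 10.80, 10.39 and 10.80 with AMI and 10.33, 10.32 and 10.41 with vehicle. AMI arrays 1 and 3 were above all the vehicle arrays and array 2 was within their range. The difference was 0.31 (SE 0.13, 1.24-fold), with an unadjusted p of 0.038 and an adjusted p of 0.9996 (limma). Slc2a1 is among the genes the study listed as changed in these hippocampal samples, so this value is no independent evidence of its direction. In the cortex the AMI arrays read 10.67, 10.49 and 10.93, and the vehicle arrays 10.43, 10.44 and 11.28. The third cortical vehicle array was the highest of the 12, and the mean difference of -0.02 (SE 0.23) became 0.26 without it.

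That same cortical vehicle array also had the highest mean log2 signal of 12 endothelial markers, at 8.74 against 8.38 and 8.20 on the other vehicle arrays. On cortical AMI arrays 1 to 3 this mean was 8.59, 8.61 and 8.46, the opposite order to Slc2a1 (10.67, 10.49 and 10.93). In the hippocampus this mean was 8.28, 8.31 and 8.58 on the AMI arrays and 8.08, 8.26 and 8.35 on the vehicle arrays, and AMI array 3, high for Slc2a1, was also the highest here. The summed linear signal of the list was 4727 to 6088 with AMI and 4192 to 4925 with vehicle in the hippocampus, and 5569 to 6093 against 4492 to 7105 in the cortex. Of its 12 tested genes, 10 lay above 0 after AMI in the hippocampus, 9 did so in the cortex, and none passed the adjusted test. The defining endothelial genes Cdh5, Ocln and Abcb1a were not detected. The mean of 3 red cell genes was 9.51, 8.74 and 10.55 on hippocampal AMI arrays 1 to 3, against 8.62 to 9.10 on the vehicle arrays. The part of vessel content in the Slc2a1 values was not tested.

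**Figure D2:**
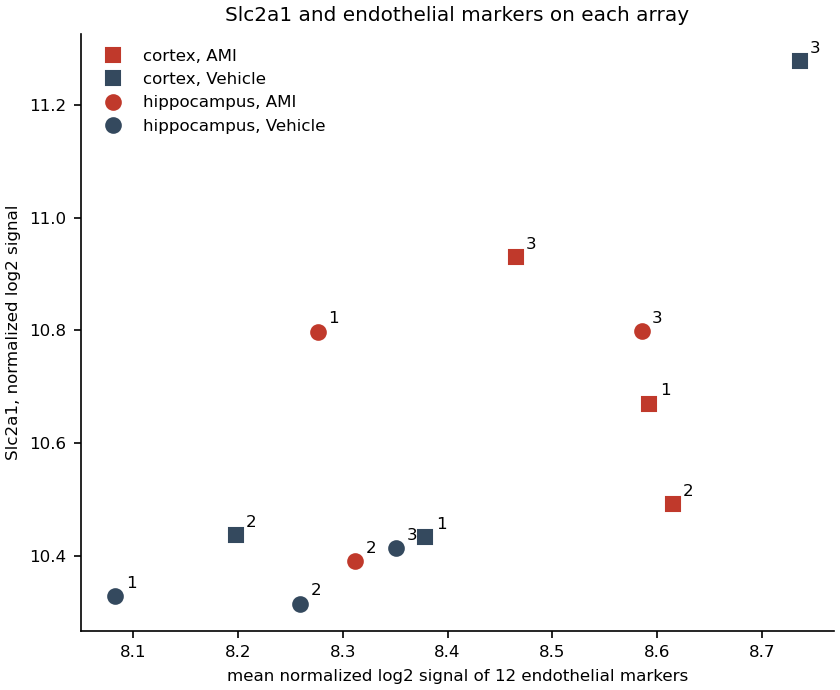
Normalized log2 signal of Slc2a1 (vertical axis) against the mean normalized log2 signal of 12 endothelial marker genes (horizontal axis) on each of the 12 arrays, numbered by replicate. Cortical vehicle array 3 is highest on both axes (8.74 and 11.28), while hippocampal AMI array 1 has a high Slc2a1 signal (10.80) at a mean of 8.28.

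Of the glycolytic targets, Pgk1 differed in the cortex. It was 6.81, 6.90 and 6.74 on the cortical AMI arrays and 6.36, 6.21 and 6.64 on the vehicle arrays, without overlap. The difference was 0.41 (SE 0.13, 1.33-fold), with an unadjusted p of 0.010 and an adjusted p of 0.756 over 12944 probes (limma). This probe lay near background and was detected on 3 of 3 AMI arrays but on 1 of 3 vehicle arrays, so it entered the test mainly through the group in which it was higher. It starts at base 20 of the transcript record, near the 5′ end, as 1.79% of all probes do. In the hippocampus Pgk1 was 6.27, 6.74 and 6.69 with AMI and 6.42, 6.60 and 6.44 with vehicle, a difference of 0.08 with overlap. Ldha, which converts pyruvate to lactate, was the brightest member, at 11.44, 11.18 and 11.32 with AMI and 11.20, 11.26 and 11.22 with vehicle in the hippocampus. Its difference was 0.09 there and -0.02 in the cortex, with overlap in both.

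Vegfa was measured by 2 detected probes. ILMN_2484527 read 9.47, 8.85 and 9.35 with AMI and 9.21, 8.91 and 8.90 with vehicle in the hippocampus. The difference of 0.21 (SE 0.17) came from AMI arrays 1 and 3, while array 2 was the lowest of the 6. The other probe, ILMN_3121255, differed by 0.08 in the hippocampus but -0.07 in the cortex, and the first by 0.06 in the cortex, all with overlapping groups.

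Taking the 8 tested genes other than Hif1a, 0 passed an adjusted p of 0.05 in the hippocampus and 0 in the cortex by limma, as did 0% of all 13163 and 0% of all 12944 probes tested. At an unadjusted p under 0.05, 2 of the 8 genes were found in the hippocampus, Slc2a1 and Vhl, beside 2.35% of all probes tested. In the cortex 1 of the 8 was found, Pgk1, beside 6.28%. The same genes met the size and p parts of the methods' criterion, a z ratio (a probe's difference in units of the SD of all probes' differences) of 1.5 or more with an unadjusted p of 0.05 or less. Those parts were met upwards by 1.44% of hippocampal probes and 4.36% of cortical probes. The methods also ask for a false discovery rate under 0.3, and 0 member probes had an adjusted p of 0.3 or less in either tissue, so no member met the whole criterion in this fit. Groups without overlap and higher after AMI were found for Vhl in the hippocampus and Pgk1 in the cortex, 1 of 8 genes in each tissue, against 4.38% and 8.10% of all probes. These are counts of 1 or 2 genes of 8. Every cortical count rests on Pgk1, which met the detection filter through the AMI arrays. The hippocampal counts rest on Slc2a1, which the study had listed, and on Vhl, whose difference was 0.16 without vehicle array 3. The members were also chosen with earlier results of these data known, so the counts of either tissue support nothing about the members. Over the 11 member probes without Hif1a, the median log2 fold change was 0.09 in the hippocampus and 0.05 in the cortex, beside 0.01 and 0.02 over all probes tested. The differences lay above 0 for 10 of the 11 probes (hippocampus) and 7 of the 11 (cortex), as did 55.0% and 57.1% of all probes. By gene, taking the brightest probe of each, 7 of 8 and 5 of 8 lay above 0. The 11 probes share arrays and include more than 1 each for Egln1 and Vegfa. They are thus not independent, and these counts are a description.

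**Figure D3:**
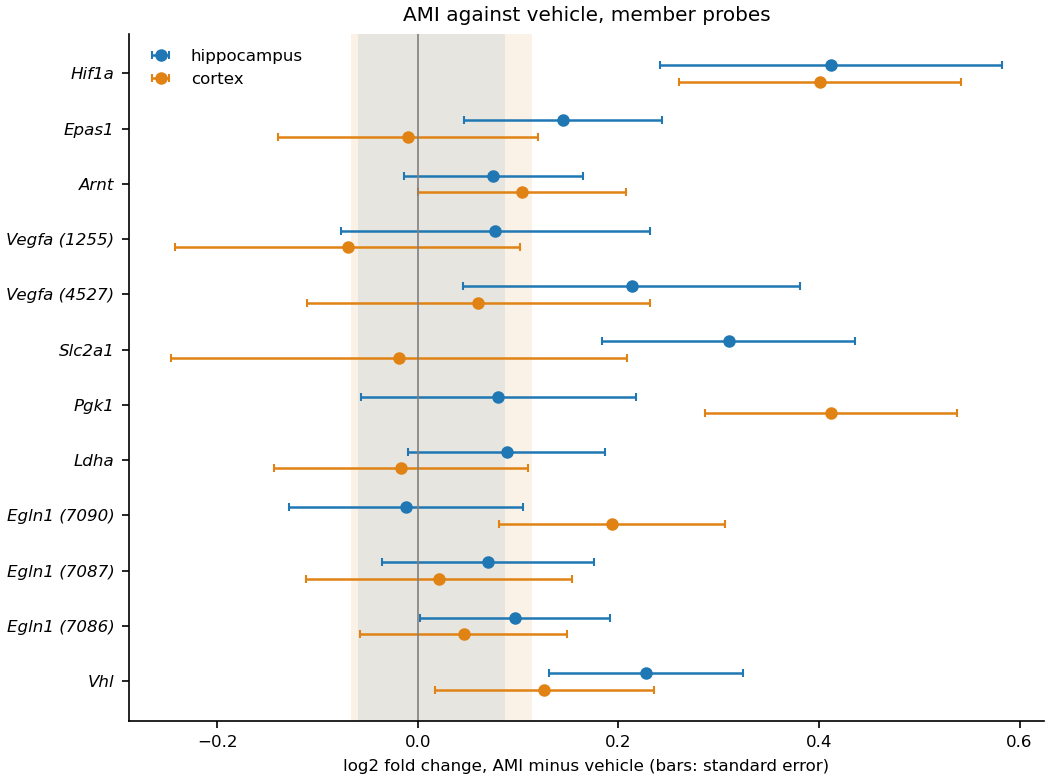
Log2 fold change, AMI minus vehicle, of each tested member probe in the hippocampus (blue) and the cortex (orange), with the standard error of the limma fit as bars (n = 3 arrays per group) and the shaded range from the lower to the upper quartile of all tested probes. Hif1a lies at 0.41 and 0.40, Slc2a1 at 0.31 in the hippocampus and -0.02 in the cortex, Pgk1 at 0.08 and 0.41, and the rest of the probes lie closer to 0.

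Of the 8 tested members other than Hif1a, 0 had a difference in response to AMI between the tissues that passed the test. The tissue by treatment term was 0.33 for Slc2a1 (SE 0.29), and 0.05 without cortical vehicle array 3. It was -0.33 for Pgk1 (SE 0.19), and -0.18 without hippocampal AMI array 1. For Hif1a, chosen for its values in both tissues, this term is not given. None of them passed an adjusted p of 0.05, nor did any of 12430 probes (0%), and 377 of all probes had an unadjusted p under 0.05 (limma).

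The pathway was followed further in 4 lists of other genes, of which 76 were on the array and 60 were tested in each tissue. None of the 60 passed the adjusted test after AMI in either tissue, and 3 in each tissue had an unadjusted p under 0.05 (limma), as did 2.35% of all hippocampal and 6.28% of all cortical probes tested. Groups were apart and higher after AMI for 5 of the 60 genes (hippocampus) and 3 of the 60 (cortex), beside the 4.38% and 8.10% of all probes given above. Of 14 HIF subunits, regulators and cofactors, 6 lay above 0 in the hippocampus (median -0.04) and 5 in the cortex (median -0.05). Of 16 genes of glucose uptake and glycolysis, 8 and 7 lay above 0, with medians of -0.02 and -0.08. Among them, Slc16a3, a lactate exporter, was the sole gene whose groups did not overlap, with a difference of 0.08 in the cortex.

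Among 9 hypoxia-induced vascular genes the medians were 0.09 and 0.04. Angpt2, which loosens vessel walls and is made by endothelial cells, had the largest difference in the cortex among the genes whose groups did not overlap, with 7.54, 7.48 and 7.45 on the AMI arrays and 7.19, 7.02 and 7.12 on the vehicle arrays. The difference was 0.38 (SE 0.09, adjusted p = 0.756), and the groups did not overlap. Angpt1, which stabilizes vessels through the same receptor, differed by 0.20 in the cortex but was detected on none of the vehicle arrays there. In the hippocampus, Edn1, the vasoconstrictor endothelin-1, differed by 0.19 and the VEGF receptor Flt1 by 0.11, both without overlap between groups. Of 21 other hypoxia-induced genes the medians were 0.02 and 0.06. Kdm3a, a histone demethylase, differed by 0.23, Ankrd37 by 0.23 and Mxi1, a repressor of the MYC network, by 0.19 in the hippocampus, all 3 without overlap and with adjusted p = 0.9996. Epo, Car9 and Adm, among the best-known hypoxia-induced genes, were not detected in either tissue.

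**Figure D4:**
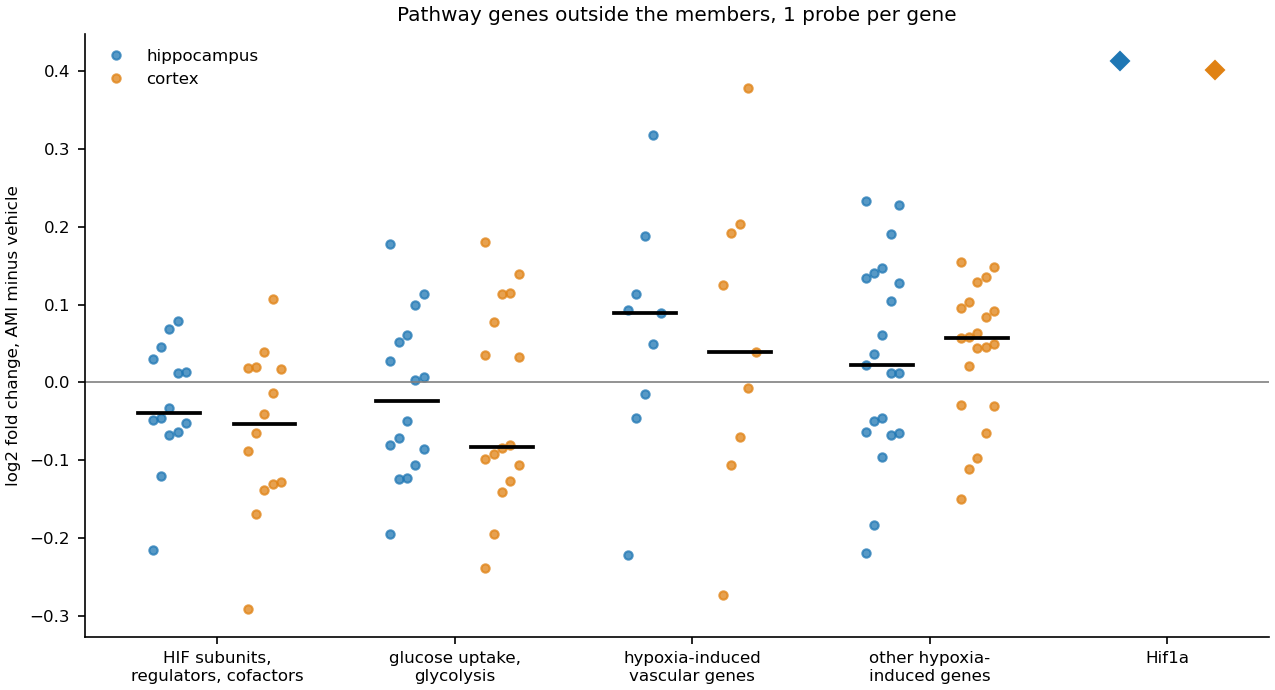
Log2 fold change, AMI minus vehicle, of pathway genes other than the members, 1 probe per gene, in 4 lists, with Hif1a beside them (diamonds). Points are genes in the hippocampus (blue) and the cortex (orange), black lines are the medians of each list, which lie between -0.08 and 0.09, and Hif1a lies at 0.41 and 0.40.

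Between the tissues, Epas1 showed the largest difference of any member. It was 6.52 ± 0.13 in the hippocampus and 7.26 ± 0.21 in the cortex of vehicle mice (SD, n = 3), and 6.66 ± 0.03 and 7.25 ± 0.13 in AMI mice. No hippocampal array reached the lowest cortical array, at 7.05. The difference, hippocampus minus cortex, was -0.74 in vehicle mice (SE 0.12, adjusted p = 0.00065) and -0.59 in AMI mice (SE 0.12, adjusted p = 0.0029, limma). The hippocampal Epas1 signals, at 6.38 to 6.69, lay close to the undetected range. The size of the difference depended on the normalization, with -1.43 in vehicle mice and -1.02 in AMI mice under neqc. The hippocampal and cortical arrays were read out in separate tables by different software, with highest signals of 35958 to 53324 in the hippocampus and 24573 to 27400 in the cortex. Tissue and processing run therefore cannot be told apart, for Epas1 and for every tissue difference below.

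Hif1a did not differ between tissues beyond its spread, with differences of -0.09 in vehicle mice and -0.08 in AMI mice (SE 0.17, adjusted p = 0.73 and 0.76). Its mean level was 6.94 ± 0.21 and 7.03 ± 0.22 in the vehicle groups and 7.35 ± 0.31 and 7.43 ± 0.18 in the AMI groups of hippocampus and cortex (SD, n = 3). Vhl ran the other way from Epas1. In AMI mice it was 7.49 ± 0.05 in the hippocampus and 7.19 ± 0.03 in the cortex, a difference of 0.30 (SE 0.10, adjusted p = 0.042) without overlap. This call passed in 8 of 20 alternative settings and was lost with quantile normalization (adjusted p = 0.14), neqc (0.14) and the replicate block. In vehicle mice its difference of 0.20 (SE 0.10, adjusted p = 0.17) did not pass.

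Ldha was 11.23 ± 0.03 in the hippocampus and 11.61 ± 0.12 in the cortex of vehicle mice (SD, n = 3), a difference of -0.38 (SE 0.11, adjusted p = 0.027) that did not pass in AMI mice (-0.28, adjusted p = 0.087). This call depended on scaling. With median centring in place of z normalization the Ldha difference in vehicle mice was 0.18, while the median of all probes moved from 0.04 to 0.18, so relative to that median the difference went from -0.42 to -0.0038. One Egln1 probe, ILMN_2617090, was lower in the hippocampus of AMI mice (-0.38, SE 0.12, adjusted p = 0.029). The overlapping probes ILMN_2617087 and ILMN_2617086 had differences of -0.28 and -0.11 there (adjusted p = 0.10 and 0.41), so probes of nearly the same sequence did not give the same call. The Vegfa probe ILMN_3121255 was lower in the hippocampus by a difference of -0.47 in vehicle mice (adjusted p = 0.067), while ILMN_2484527 differed by -0.08.

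**Figure D5:**
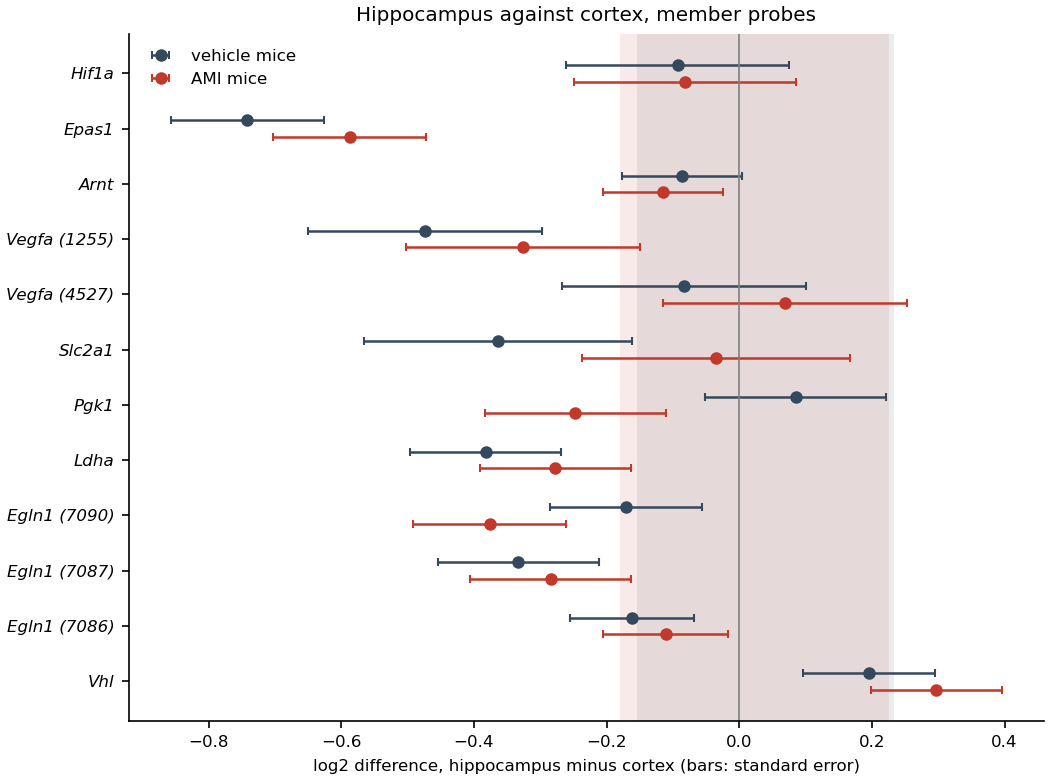
Log2 difference, hippocampus minus cortex, of each tested member probe in vehicle mice (dark) and AMI mice (red), with the standard error of the limma fit as bars (n = 3 arrays per group) and the shaded range from the lower to the upper quartile of all tested probes. Epas1 lies lowest, at -0.74 and -0.59, and Vhl highest, at 0.20 and 0.30.

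In all, 2 of 9 member genes passed between tissues in vehicle mice and 3 of 9 in AMI mice, where 25.1% and 27.0% of all 13677 probes passed. The member counts, by gene and not by probe, lie near this background. In the wider lists, 23 of 61 genes passed in vehicle mice and 19 in AMI mice, and 14 genes passed in both. A gene counted when any of its probes passed, and the 61 genes had 83 tested probes. These counts are thus not in the same unit as the shares of probes above. No share over all probes was taken for passing in both groups, so these counts are a description. The glycolytic genes that passed were mostly lower in the hippocampus with z normalization. They included the neuronal glucose transporter Slc2a3 (-0.63 and -0.55 in vehicle and AMI mice) and the phosphofructokinase subunits Pfkp (-0.75 and -0.90) and Pfkm (-0.70 and -0.65). Tpi1 had probes called in both directions in each treatment group. Scaling may limit these directions. With median centring the bright Slc2a1 moved from -0.36 to 0.11 in vehicle mice, as Ldha moved above. The glycolysis list was also bright, with mean log2 signals of 10.60 and 10.87 in hippocampus and cortex of vehicle mice. Its direction under median centring was not tested. Of the other hypoxia-induced genes, most that passed were higher in the hippocampus, with 9 higher and 1 lower in vehicle mice. In AMI mice 6 were higher and 1 lower. Calls over all probes also leaned this way, with 2048 higher and 1385 lower in vehicle mice, and 2060 and 1634 in AMI mice. Carbonic anhydrase Car12 differed by 1.03 and 0.99, the mTOR inhibitor Ddit4 by 0.67 and 0.60, and the mitochondrial Higd1a by 0.52 and 0.57. Rora, a nuclear receptor, was the one lower gene (-0.88 and -0.85).

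The genes whose array-to-array pattern was most like that of Hif1a were not members. Over the 12 arrays, after centring each tissue, the root mean square difference from Hif1a was smallest for Ranbp6 (0.12), Ccng1 (0.13), Cadps2 (0.13), Epha3 (0.14) and Klhl24 (0.15), against a median of 0.30 over 12430 probes. Ranbp6, a nuclear import receptor relative, read 6.68, 7.05 and 6.82 with AMI and 6.78, 6.69 and 6.51 with vehicle in the hippocampus. In the cortex it read 7.29, 7.41 and 7.03 against 6.95, 6.50 and 7.04, so its groups overlapped in each tissue. Of the members, Pgk1 came nearest, at 0.20 and rank 235, followed by Vhl at 0.22 and rank 603, while Slc2a1 stood at 0.39 and rank 11198. Values were centred by tissue and not by treatment, so any rise after AMI adds to likeness with Hif1a, chosen for that rise. Pgk1 also met the cortical detection filter mainly through the AMI arrays. The ranks are a description and support nothing about the members.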

How the data were processed

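The authors deposited, per tissue, a table of linear bead signal intensity with detection p-values, exported by BeadStudio (gene expression module 3.4.0, hippocampus) or GenomeStudio (1.1.1, cortex) per the file headers, without normalization or background subtraction, so that fold changes of dim probes are understated. Here signals were log2-transformed, z-normalized per array as in the methods, and returned to the common SD and mean of the 12 arrays. In each tissue, probes with a detection p of at most 0.05 on 3 or more of its 6 arrays entered limma 3.58.1 in R 4.3.3 (lmFit, eBayes, two-sided, Benjamini-Hochberg over all probes tested), and the script was tested on simulated data. Each tissue had its own fit for AMI, and a fit of the 4 groups gave the interaction and the tissue contrasts. The interaction used probes tested in both tissues, and the tissue contrasts those tested in either. Precision was limited by 3 arrays per group.

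The members and gene lists were chosen with earlier results of these data known. All member probes were described. From each list of other genes, those called or, with none called, up to 3 with the largest differences among genes whose groups did not overlap were named, each by its brightest probe; where many tissue calls were made, examples were chosen after their values were seen. Same-numbered hippocampal AMI and vehicle arrays deviated together (correlations over probes 0.61, 0.30 and 0.29), against -0.47 to 0.28 for different numbers. The pair numbered 1 stood out, while 0.30 and 0.29 were close to the 0.28 of AMI array 3 with vehicle array 2. The cortical correlations were -0.06, 0.33 and 0.33, against -0.42 to 0.27 for different numbers. The labels name no shared batch, so whether the numbers pair arrays was not settled in either tissue. Probe positions on the genome are not given because the tables name no build. Alternatives were quantile normalization, median centring, neqc, other detection filters, other variance models, array weights, a replicate block, the methods' t-test, 1 probe per gene and leaving out each array.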

Additional observations from a re-analysis of the deposited data

How the results depend on the processing

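The counts of 0 members and 0 pathway genes past the adjusted test after AMI, and for the difference in response between tissues, held under every alternative run. With the replicate block, 0 members passed in either tissue, and the all-probe number at an unadjusted p under 0.05 went from 309 to 1063 in the hippocampus and from 813 to 1125 in the cortex, with 0 adjusted calls in both. The median member change was 0.09 in the hippocampus, 0.08 to 0.13 leaving out single arrays, and 0.05 in the cortex, -0.01 to 0.16 leaving out single arrays. Between tissues, the 2 members called in vehicle mice became 1 with median centring, 1 with trend and robust variances, and 1 to 3 leaving out single arrays (1 without hippocampal vehicle array 1 or 2). The 3 called in AMI mice became 1 to 3 (1 without hippocampal AMI array 1 or 3 or cortical AMI array 1) and 2 with the replicate block, where Vhl no longer passed. The 23 pathway genes called in vehicle mice became 15 with median centring, 26 with the replicate block and 13 to 25 leaving out single arrays. The 19 in AMI mice became 35 with array weights, 22 with the block and 10 to 22 leaving out single arrays. The Ldha tissue difference in vehicle mice turned to 0.18 with median centring, and the cause was not tested beyond the shift of the all-probe median. Epas1 passed between tissues in 20 of 20 settings in both treatment groups. Signal near background limits Arnt, Pgk1 and hippocampal Epas1, and Bnip3 could not be measured.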
